A study of Danio rerio with 2 samples.

Results

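In the authors' table of 1287 genes that differed between WT and ezh2 mutant zebrafish embryos, 4 rows belong to subunits of Polycomb repressive complex 1 (PRC1) named by the symbols cbx2, cbx6b, cbx7a and rybpa. Each row was found from the zebrafish gene symbol in the table's KEGG annotation and again from its product name, and each symbol matched 1 row. The chromobox genes cbx2, cbx6b and cbx7a are the only listed rows whose annotation names a chromobox protein, and rybpa encodes RING1 and YY1 binding protein A. Messenger RNA came from whole embryos (Danio rerio, AB background) at 28 hours post fertilization, with 1 library of WT embryos and 1 library of ezh2-/- embryos. The labels give neither the ezh2 allele nor the number of embryos behind a library, and in whole embryos fewer cells of a type and less RNA per cell cannot be told apart.

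PRC1 is a family of complexes built on a RING-type ubiquitin ligase that marks histone H2A. In the canonical form a chromobox (Cbx) subunit reads, through its chromodomain, the trimethylated lysine of histone H3 that Ezh2 deposits as the catalytic subunit of PRC2. Rybp, or its relative Yaf2, takes the place of the Cbx subunit in variant PRC1, which needs no such mark for its recruitment. A canonical complex holds 1 Cbx protein, and in mouse embryonic stem cells Cbx7 is the main one, while Cbx2 comes to the fore as these cells differentiate.

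The 4 genes went in different directions. In the ezh2-/- library cbx7a was higher, and cbx2, cbx6b and rybpa were lower. Of the 1287 listed genes, 68.1% were at least 2-fold higher and 31.9% at least 2-fold lower, so 1 of 4 higher stands beside a table in which most genes were higher. The median log2 fold change was -1.05 over the 4 genes and 1.31 over all listed genes. The authors kept only genes that differed by 2-fold or more in their own comparison, so a fold of that size in each of the 4 genes is set by this selection and is not a result about them. With 1 library a genotype there is no replicate spread and no test, and the intervals below (95%, exact) cover counting error only.

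cbx7a, whose mouse counterpart is a reader of the Ezh2 mark in stem cells, had 49 reads in the WT library (Poisson interval 36.3 to 64.8) and 736 reads in the ezh2-/- library (684 to 791). Its FPKM, a level adjusted for transcript length and library size, was 1.22 in WT and 18.4 in ezh2-/-. The deposited FPKM is not always the deposited count rescaled, as cbx6b shows below. On the scale between libraries given below, the ratio of counts was 15.2-fold (11.4 to 20.7). The FPKM ratio was 15.1-fold. This gene moved from a low level to one of the better expressed in the table. In WT, 34.6% of listed genes had a lower FPKM than cbx7a, and in ezh2-/- 86.7% did. By fold it ranked 59 of the 876 genes that were higher.

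cbx2, which in the mouse compacts chromatin and acts on Hox genes and gonad development, had 958 reads in WT (898 to 1021) and 453 in ezh2-/- (412 to 497). Its FPKM was 22.8 in WT and 10.9 in ezh2-/-. The count was 2.09-fold lower in ezh2-/- (1.87 to 2.35). The fold lies close to the authors' limit: 52 of the 411 lower genes had a smaller fold.

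cbx6b, a less studied member of the same family, had 606 reads in WT (559 to 656) and 247 in ezh2-/- (217 to 280). The count was 2.43-fold lower (2.09 to 2.83), the largest fold by counts among the 3 lower genes. Its FPKM was 5.08 in WT and 2.74 in ezh2-/-, which is 1.85-fold lower and under 2-fold. For this gene the count and the FPKM therefore give different sizes. It had 119 reads per unit of FPKM in WT and 90.03 in ezh2-/-, a ratio of 0.754. Over the 391 listed genes with at least 200 reads in both libraries this ratio had a median of 0.978 (quartiles 0.931 and 1.02). Of these genes, 11 (2.81%), cbx6b itself included, lay at or below the value of cbx6b. For cbx2, cbx7a and rybpa the ratio was 0.994, 0.998 and 1.02. Reads per unit of FPKM depend on the transcript length that the authors' processing assigned and on how reads were counted for each measure. Whether a change of transcript form or a difference in counting goes with the value of cbx6b was not tested.

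rybpa, the variant PRC1 subunit, had 578 reads in WT (532 to 627) and 280 in ezh2-/- (248 to 315). Its FPKM was 12.4 in WT and 5.88 in ezh2-/-. The count was 2.04-fold lower (1.77 to 2.37), and 20 of the 411 lower genes had a smaller fold. The authors' deposited table gives it a log2 fold change of -1.03, just inside the 2-fold limit of their selection. It is the 1 listed gene that the table annotates with the PcG protein complex and with histone H2A monoubiquitination, while cbx2 and cbx6b carry no such annotation terms at all, as is the case for 471 of the 1287 listed genes.

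**Figure D1:**
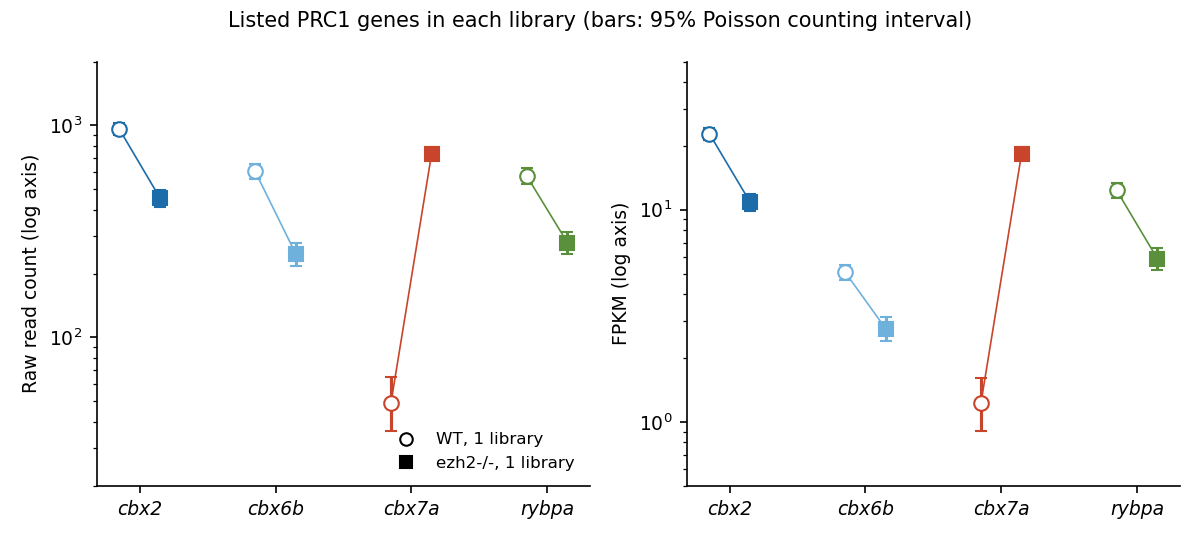
Raw read count (left) and FPKM (right) of each gene in the WT library (open circles) and the ezh2-/- library (filled squares), on log axes; bars are 95% Poisson counting intervals, scaled to FPKM on the right. cbx7a goes from 49 to 736 reads, and the other genes lie lower in ezh2-/-.

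The folds of these genes can be set against each other without any scale between the libraries, since the scale cancels in a ratio of folds. All 6 pairs were compared, by the conditional odds ratio of the 4 counts with its exact interval. The fold of cbx7a was 31.7 times that of cbx2 (23.2 to 44.2), 30.9 times that of rybpa (22.3 to 43.6) and 36.7 times that of cbx6b (26.4 to 52.0). From FPKM the value against cbx6b was 25.5, under that interval. The authors' selection puts a higher and a lower gene on opposite sides of their 2-fold limits. That these ratios lie well above 1 was therefore fixed beforehand and is not a separate result. Among the 3 lower genes the folds were not told apart at this depth, and all 3 were selected past the same limit, which favours like folds. The ratio was 1.02 for rybpa over cbx2 (0.851 to 1.23), 1.16 for cbx2 over cbx6b (0.960 to 1.40) and 1.19 for rybpa over cbx6b (0.963 to 1.47). From FPKM, the last 2 ratios were 0.870 and 0.874, so which of the lower genes has the largest fold depends on the measure.

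Levels between genes were compared per transcript length, as FPKM. In WT the order was cbx2, rybpa, cbx6b and cbx7a, at 22.8, 12.4, 5.08 and 1.22 FPKM. In ezh2-/- it was cbx7a, cbx2, rybpa and cbx6b, at 18.4, 10.9, 5.88 and 2.74 FPKM. In both orders, the counting intervals of neighbouring genes, scaled from counts to FPKM, do not overlap. This scaling takes the FPKM of a gene as proportional to its count within a library, which was not tested. The order of the 3 lower genes was the same in both libraries, which follows from their like folds above and is not a separate result. The level of cbx2 was 1.85 times that of rybpa in WT and 1.85 times in ezh2-/-, and 4.50 and 3.96 times that of cbx6b. cbx7a was 18.7-fold below cbx2 in WT and 1.69-fold above it in ezh2-/-.

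As shares of the listed chromobox total, cbx7a went from the smallest part to the largest. In WT it held 3.04% of the 1613 chromobox reads (exact binomial interval 2.26 to 3.996), and in ezh2-/- 51.3% of 1436 reads (48.6 to 53.9). The share of cbx2 was 59.4% in WT (56.9 to 61.8) and 31.5% in ezh2-/- (29.1 to 34.0). The share of cbx6b was 37.6% in WT (35.2 to 40.0) and 17.2% in ezh2-/- (15.3 to 19.3). In none of these genes do the intervals of the libraries overlap. The rows were selected for a difference between the libraries, so such a gap is not a separate result. Shares of reads favour long transcripts. By FPKM the share of cbx7a was 4.20% in WT and 57.5% in ezh2-/-, that of cbx2 was 78.4% and 33.9%, and that of cbx6b was 17.4% and 8.57%. Shares of a total are bound to each other, so a larger share of cbx7a alone lowers the others; the counts above show that cbx2 and cbx6b were also lower by themselves. This total leaves out every chromobox gene that the authors did not select, among them the paralogues cbx6a and cbx7b, so it is not the chromobox pool of the embryo.

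**Figure D2:**
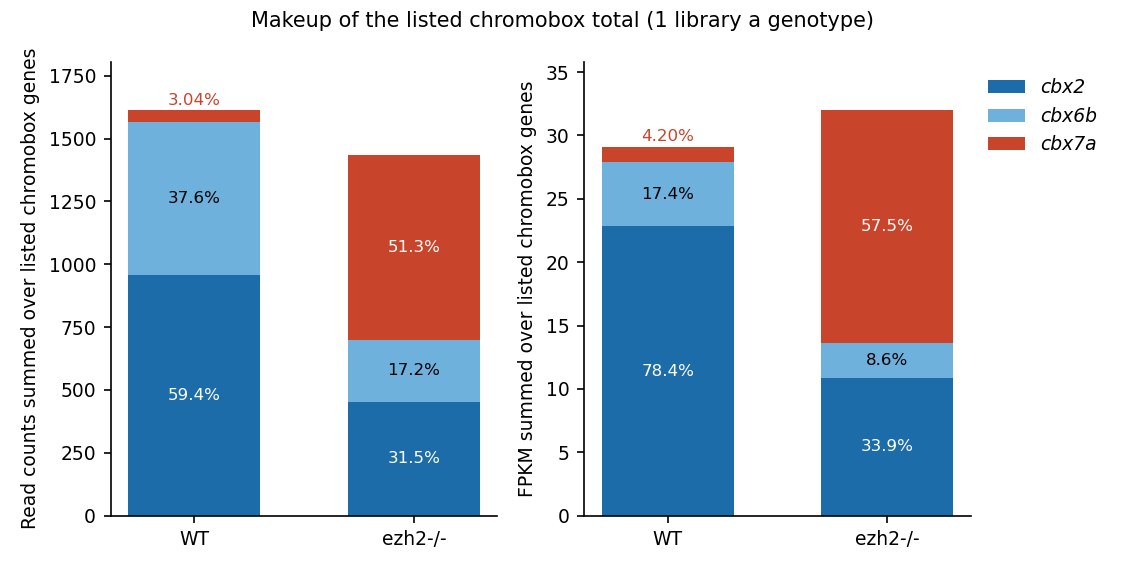
Read counts (left) and FPKM (right) summed over the listed chromobox genes in each library, with each gene's percent of the total printed on or above its segment. cbx7a takes 3.04% of reads in WT and 51.3% in ezh2-/-, while the height of the bars changes little and in opposite directions on the 2 scales.

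The summed level of the listed chromobox genes changed far less than its parts. The sum joins cbx7a, selected as higher, with cbx2 and cbx6b, selected as lower, so some offset between them was fixed beforehand. Whether the chromobox level of the embryo stayed steady was not tested. Over cbx2, cbx6b and cbx7a the reads were 1.11-fold lower in ezh2-/- (1.04 to 1.19), and the FPKM sum went from 29.1 to 32.0, 1.10-fold higher. The direction of the total therefore differs between reads and FPKM. Without cbx7a, the reads of cbx2 and cbx6b went from 1564 to 700, 2.21-fold lower (2.02 to 2.42), and their FPKM sum from 27.9 to 13.6, 2.05-fold lower.

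The rest of the Polycomb machinery was looked up in lists of 84 genes, 79 of whose symbols are in the RefSeq table used for names. Of 36 PRC1 genes 5 were found by symbol, the 4 above and scml2, and the 5 had a median log2 fold change of -1.07. What share of all zebrafish genes the authors selected was not worked out. This count and those of the other lists below therefore have no background beside them. scml2 encodes a relative of Sex comb on midleg, a Drosophila Polycomb group protein that binds PRC1. It had 2118 reads in WT and 994 in ezh2-/-, 2.11-fold lower (1.96 to 2.28), with an FPKM of 35.8 and 16.5. On the per-length scale it was thus more abundant in WT than each of the 4 genes above. Its fold is close to those of cbx2 and rybpa, but all of these lie near the authors' 2-fold limit. Of the 411 lower genes, 60 had a smaller fold than scml2. No other PRC1 gene of the list was found by symbol. Only 558 of the 1287 listed genes had a symbol to match, so a row without one would be missed. None of 13 PRC2 genes, 8 heterochromatin (HP1) and CDY-like chromodomain genes or 6 genes of the complex that removes ubiquitin from H2A was found. Nor was any of 16 H3K27 demethylase and trithorax genes or the 2 yy1 genes, so none of these was analysed here. ezh2 is among these PRC2 genes, so its reads offer no check of the labels.

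The INK4/ARF locus, a target that CBX7 represses in mouse and human cells, had no listed gene by symbol. By product name, and chosen after its values were seen, the table holds a gene called cyclin-dependent kinase inhibitor 2A-like (gene539), of which the table gives no zebrafish symbol. It had 27 reads in WT and 111 in ezh2-/-, 4.15-fold higher (2.71 to 6.58), with an FPKM of 0.883 and 4.27. Whether this is the locus was not tested.

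**Figure D3:**
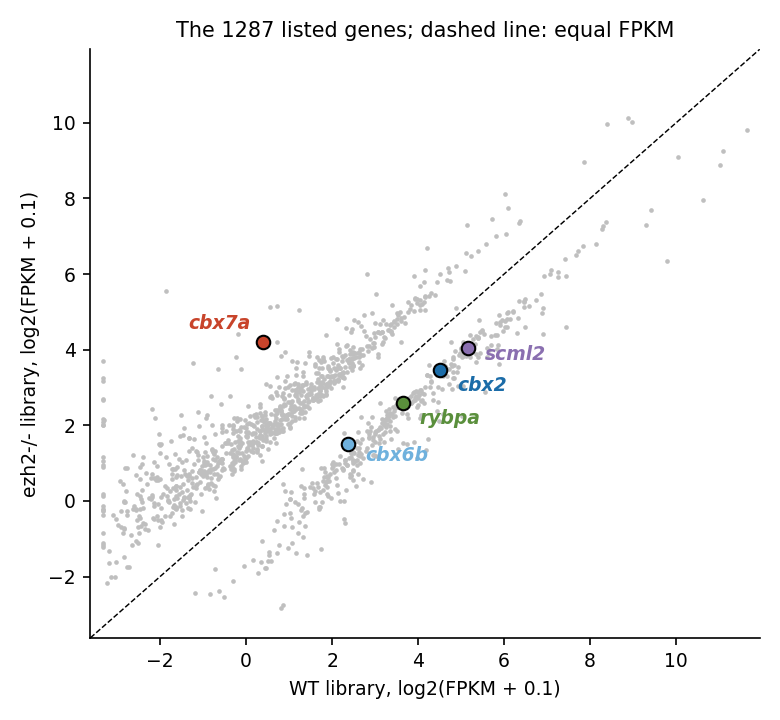
FPKM of the 1287 listed genes in the ezh2-/- library against the WT library, each as log2(FPKM + 0.1); grey points are all listed genes and coloured points the PRC1 genes. cbx7a lies in the upper band, away from the diagonal, and cbx2, cbx6b, rybpa and scml2 lie along the inner edge of the lower band; on this scale 841 genes were at least 2-fold higher and 351 at least 2-fold lower, and the rest, cbx6b among them, lie nearer the diagonal.

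In the table's own KOG annotation, 8 listed genes belong to the chromatin class, 3 of them the chromobox genes. Of the other 5, 4 were lower and 1 was higher, in a table where 31.9% of all listed genes were lower and 68.1% higher. The lower ones included the linker histone genes h1-10 (3.19-fold) and histh1l1 (2.08-fold) and the methyl-CpG binding gene mbd3b (2.38-fold). The higher one, a histone H2-like gene (gene38334), had 3 reads in WT and 28 in ezh2-/-.

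Genes with the most similar pattern were taken as the 2 nearest to each gene by Euclidean distance in log2(FPKM + 0.1) over the 2 libraries, among 511 listed genes with a descriptive symbol and at least 50 reads in one library. With only 2 libraries this names genes of like level and like fold, nothing more. Nearest to cbx7a were cyp24a1, which encodes the enzyme that inactivates vitamin D, at a distance of 0.306 (1.53 FPKM in WT and 18.2 in ezh2-/-), and the AP-1 gene junba at 0.550 (1.66 and 14.2 FPKM). Nearest to cbx2 were gas1b, a hedgehog co-receptor gene, at 0.0395 (22.6 and 10.6 FPKM) and the cyclin G2 gene ccng2 at 0.118 (24.7 and 10.7 FPKM). Nearest to cbx6b were the homeobox gene lbx1a at 0.257 (5.31 and 2.29 FPKM) and the Notch ligand gene jag1a at 0.265 (5.44 and 2.30 FPKM). Nearest to rybpa were ndst3 at 0.0384 (12.5 and 5.74 FPKM), whose product name in the table is that of the paralogue NDST4, and the homeobox gene emx2 at 0.0538 (12.0 and 6.04 FPKM). The neighbours of cbx7a lay farther from it than those of the other 3 genes from theirs.

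The 3 chromobox genes lie on 1 chromosome in the gene order of the RefSeq assembly GRCz12tu, which is not the authors' build and was used for order alone. Between cbx6b and cbx7a, which have opposite folds, stand 16 protein-coding genes. None of these was found listed under a zebrafish gene ID, and a listed row without an ID would be missed. On the other side of cbx6b, beyond 13 protein-coding genes, stands the nearest listed gene of the hoxb cluster, hoxb2a; of this cluster hoxb2a (2.25-fold), hoxb4a (2.08-fold), hoxb3a (2.07-fold) and hoxb8a (2.23-fold) were listed as lower within 20 protein-coding genes of cbx6b. Within the same distance of cbx7a no listed gene other than cbx6b was found, and near cbx2 none was. Near rybpa, which lies on another chromosome, pdzrn3a was 2.87-fold higher (1.88 to 4.47) and ppp1r3da 3.36-fold lower (1.96 to 6.03). Only 558 of the 1287 listed genes could be placed in this order, so listed neighbours without a gene ID would be missed. What share of all protein-coding genes is listed was not worked out. The listed neighbours and the stretches without any therefore have no background beside them.

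The plot of folds by setting gives the 4 genes under 5 other settings. The directions were largely fixed beforehand, since both centred scales move every gene downward and the authors' own fold change is what the rows were selected on. The scale between the libraries matters for their size. All folds above are on the scale implied by the authors' own fold changes. Setting the median log2 fold of all listed genes to 0, a shift of -1.31, would make cbx7a 2.60 and cbx2 -2.37 on the log2 scale. This centring follows from a table in which most genes were selected as higher.

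**Figure D4:**
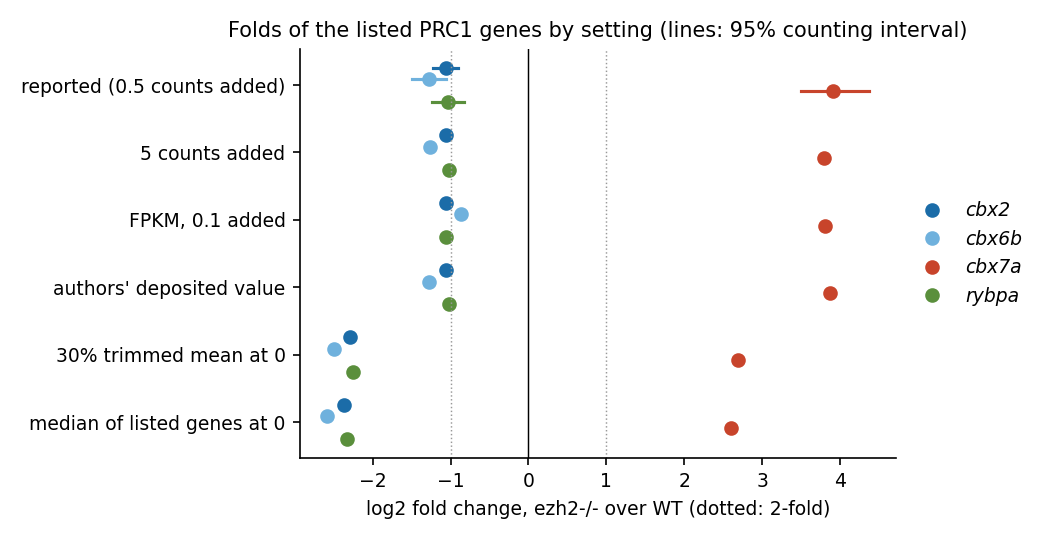
Log2 fold change of ezh2-/- over WT for each gene (colours) under the reported setting, with its 95% counting interval as a line, and under 5 alternatives; dotted lines mark 2-fold. cbx7a stays right of 2-fold in each setting, between 2.60 and 3.91, and the other genes stay left of 0, with cbx6b at -0.86 from FPKM.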

How the data were processed

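Poly(A) RNA was sequenced from 1 WT and 1 ezh2-/- library made, per the labels' protocols, with the NEBNext Ultra kit, which does not mark strand. The submitters' processing notes name GRCz10, Bowtie 0.12.2 and Cufflinks without their roles; no source used here names the counter or the FDR test. Per the file headers, the authors deposited raw read counts, FPKM, an FDR (an adjusted p-value, at most 0.00996 in this table) and a log2 fold change for 1287 selected genes. Their sums of counts, 799647 in WT and 764775 in ezh2-/-, are not library depths.

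Columns were matched to samples by the code in the titles. Count folds that are not on the log2 scale had nothing added and were multiplied by a scale factor of 1.01. Log2 folds used counts with 0.5 added, plus the same scale as a log2 value, 0.0144. This scale is the median, over the 391 genes that reach 200 counts in each library, of the authors' log2 fold change minus that of the raw counts. Intervals are 95% exact (Poisson for counts, Clopper-Pearson for folds and shares) and cover counting error only, because each genotype has 1 library. Reads lacking molecular identifiers can be copies of the same molecule, so the intervals may be too narrow even for that error. Fold steps were tested on simulated Poisson counts with no scale between libraries. This checks the calculation alone and not the spread of real libraries. Paralogous genes may share reads, and reads of overlapping antisense genes cannot be told apart. Symbols came from zebrafish KEGG gene IDs (562 genes, 558 of them matched in RefSeq, GRCz12tu). The genes, lists and alternatives were chosen with earlier results of these data known. Named genes are the 4 genes, listed genes of the lists and the 2 nearest patterns of each; the linker histone, mbd3b, histone H2-like, hoxb and rybpa-neighbour genes and the kinase inhibitor gene were named after their values were seen. No sequence is shown, and results for some genes are left out. Python 3.11.15, pandas 2.3.3, scipy 1.17.1 and matplotlib 3.10.9 were used.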

Additional observations from a re-analysis of the deposited data

How the results depend on the processing

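Adding 5 counts or using the authors' deposited log2 fold changes, on which the rows were selected, left each of the 4 genes within its counting interval. None of the 4 log2 fold changes reversed, but both centred scales below only shift genes downward and could not have turned cbx2, cbx6b or rybpa. With the median of listed genes set to 0, the log2 fold changes were -2.37 for cbx2, -2.58 for cbx6b, 2.60 for cbx7a and -2.34 for rybpa; with their 30% trimmed mean set to 0, they were -2.29, -2.50, 2.69 and -2.25. From FPKM with 0.1 added, cbx6b was at -0.86, and the ratios of folds were 25.5 for cbx7a over cbx6b, 0.874 for rybpa over cbx6b and 0.870 for cbx2 over cbx6b, the last 2 reversed; the cause was not tested. By FPKM the chromobox shares that left their intervals were 78.4% (cbx2), 17.4% (cbx6b) and 4.20% (cbx7a) in WT, and 8.57% (cbx6b) and 57.5% (cbx7a) in ezh2-/-. Matching by product name was added for the INK4/ARF list alone, and it raised the higher genes of the lists from 1 to 2. The other lists were searched by symbol only. The added gene is the cyclin-dependent kinase inhibitor 2A-like gene (gene539), matched to the INK4/ARF list and not a Polycomb subunit. It was chosen after its values were seen, and whether it is that locus was not tested. Over all listed genes, 876 were at least 2-fold higher against 210 with the median set to 0 and 290 at 4-fold. The lower count was 411 against 59 at 4-fold. With the median set to 0 it was still 411, which was fixed beforehand. That shift is downward, and every higher gene was selected too far above the lower limit to reach it. No paired analysis was possible because each genotype has 1 library. Depth, the single library of each genotype and the difference between counts and FPKM limit the comparison of folds among cbx2, cbx6b and rybpa. Genes outside the authors' selection were not analysed here.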
